A study of Bos taurus with 45 samples.

Results

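The genes described here were *ISG15* (ENSBTAG00000014707), *MX1* (ENSBTAG00000030913), *MX2* (ENSBTAG00000008471), *RSAD2* (ENSBTAG00000016061) and *IFI6* (ENSBTAG00000007554), 5 of the 24616 bovine genes listed in the files. They were selected on results of these same samples, among them their levels on the 3 diets and in the pH groups, so differences between diets or pH groups are given as a description without a p-value. The symbols came with the IDs and were not checked against an annotation of the files' genome build. RNA was sequenced from ruminal papillae, the leaf-like projections of the rumen wall, of 15 yearling Angus-Hereford crossbred heifers. Each was sampled on 3 diets, which gave 45 samples. From their ruminal pH the study proposes that some of the heifers may have had subacute acidosis of the rumen on the highest grain diet. The diets held 3% grain (fed on days 1 to 4), 75% grain (days 13 to 16) and 92% grain (days 21 to 29), as the labels name them, and the study's methods write slightly lower percentages. All heifers were in the arm that the study named rapid grain adaptation, and it describes their transition as gradual. They went through the same steps in the same order with further diets in between, and no group used here stayed on 3% grain. Diet and time therefore cannot be told apart. The study also divided the heifers by the change of their mean ruminal pH from 75% to 92% grain into a down group (DG), a balanced group (BG) and an up group (UG) of 5 heifers each. The sample labels do not give this division. The heifers of DG and UG were taken from the heifer numbers that the study lists for these groups, and BG was taken to be the 5 heifers in neither list.

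Interferons are signalling proteins that cells release when they sense viral or other foreign nucleic acids. Type I interferons bind a receptor found on most cell types, and the activated STAT and IRF proteins then switch on a large set of interferon-stimulated genes, so these genes often serve as a readout of interferon signalling in a tissue. *ISG15* encodes a ubiquitin-like protein that is attached to other proteins or secreted. *MX1* and *MX2* encode dynamin-like GTPases that block virus replication. *RSAD2* encodes viperin, a radical SAM enzyme that makes a chain-terminating nucleotide, and *IFI6* encodes a small membrane protein that interferes with flavivirus replication and with apoptosis. The rumen epithelium is a stratified squamous epithelium in steady contact with microbes, and papillae also hold connective tissue, vessels and immune cells. In such bulk samples, fewer cells of a type and less RNA per cell cannot be told apart.

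Expression was measured as RPM, in which each gene's reads are divided by the reads on all genes of the sample and multiplied by 1000000. In units of 1000000, the libraries held 22.5 to 37.1 reads on genes, with medians of 30.8, 28.4 and 31.0 for the 3%, 75% and 92% grain samples. The library of heifer 172 on 3% grain stood farthest from the others of its diet, with a median correlation of 0.957 with the other 14 samples across genes. The lowest such values were 0.973 on 75% grain (heifer 262) and 0.976 on 92% grain (heifer 286). The sources used here do not assign samples to sequencing lanes, so nothing could be repeated within lanes. The gene IDs of the files could not be matched to gene names with the reference table at hand. Neither markers of cell types nor the remaining genes of the interferon pathway were therefore analysed here. All 5 genes passed the filter of RPM over 1 in all 15 heifers on at least 1 diet, with 11516 genes in all. *MX1*, *MX2*, *RSAD2* and *IFI6* were above RPM 1 in every sample, whereas *ISG15* was above it in 15 heifers on 3% grain, 15 on 75% grain and 13 on 92% grain. Levels were not compared between genes, because gene lengths of the files' annotation were not used here.

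*ISG15* was the gene that differed most between the diets. On 3% grain its lowest, median and highest values were 3.50, 8.92 and 35.3 RPM, with the highest in heifers 178 (35.3 RPM) and 360 (30.7 RPM). On 75% grain they were 1.21, 3.59 and 55.6 RPM. On 92% grain they were 0.839, 1.48 and 16.0 RPM. Of the 15 samples on 92% grain, 13 lay below every sample on 3% grain, and the exceptions were heifers 360 and 178, the same heifers that were highest on 3% grain. *ISG15* was lower on 92% than on 3% grain in 15 of 15 heifers, which held for 0.174% of all genes tested. Its log2 fold change was -1.85 on the log2(RPM + 1) scale, with a standard error of 0.30, and the median was 6.01-fold lower. By counting error alone, the 29 reads of the lowest sample gave a 95% Poisson interval of 0.562 to 1.20 RPM, narrow beside the spread between heifers.

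The values of *ISG15* on 75% grain fell into a wide range. Heifer 262 reached 55.6 RPM, heifer 246 reached 45.5 RPM and heifer 314 reached 21.8 RPM, while the other 12 heifers lay between 1.21 and 8.51 RPM. These high heifers came from UG, BG and DG, respectively. On 3% grain the same heifers had 6.73, 19.2 and 10.7 RPM, and on 92% grain they had 1.37, 0.984 and 1.00 RPM, all below their values on 75% grain. Heifer 360 was lowest on that diet, with 30.7 RPM on 3% grain and then 1.21 RPM and 16.0 RPM. The mean on 75% grain was far from the median, 10.84 ± 17.03 RPM (SD, n = 15) against 3.59 RPM. From 3% to 75% grain *ISG15* was lower in 10 and higher in 5 heifers. The log2 fold change was -0.85 (standard error 0.43), and the changes within heifers ranged from -3.84 in heifer 360 to 2.87 in heifer 262. On recovered reads the same comparison gave a log2 fold change of -0.33 with edgeR. From 75% to 92% grain the limma value was -1.01 (standard error 0.42) and the edgeR value -1.88.

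*MX1* was also lower on 92% than on 3% grain, by less than *ISG15*. On 3% grain its lowest, median and highest values were 6.73, 12.6 and 44.9 RPM. The same values were 3.44, 9.16 and 32.6 RPM on 75% grain, while 92% grain gave 4.11, 6.02 and 31.7 RPM. From 3% to 92% grain it was lower in 14 of 15 heifers, with heifer 362 as the exception (10.7 and 10.9 RPM), and its log2 fold change was -0.98 (standard error 0.25). On 92% grain 10 samples lay below every sample on 3% grain, and the diets overlapped in the other 5. On 75% grain the highest samples were those of heifers 262 (32.6 RPM), 314 (30.4 RPM) and 362 (18.8 RPM), and the other 12 lay between 3.44 and 12.3 RPM. Heifer 360 was again high on 3% grain (44.9 RPM), low on 75% grain (3.57 RPM) and high on 92% grain (31.7 RPM), where the other 14 heifers had at most 11.4 RPM. From 3% to 75% grain the log2 fold change was -0.64 (standard error 0.29), and 11 of 15 heifers were lower.

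**Figure D1:**
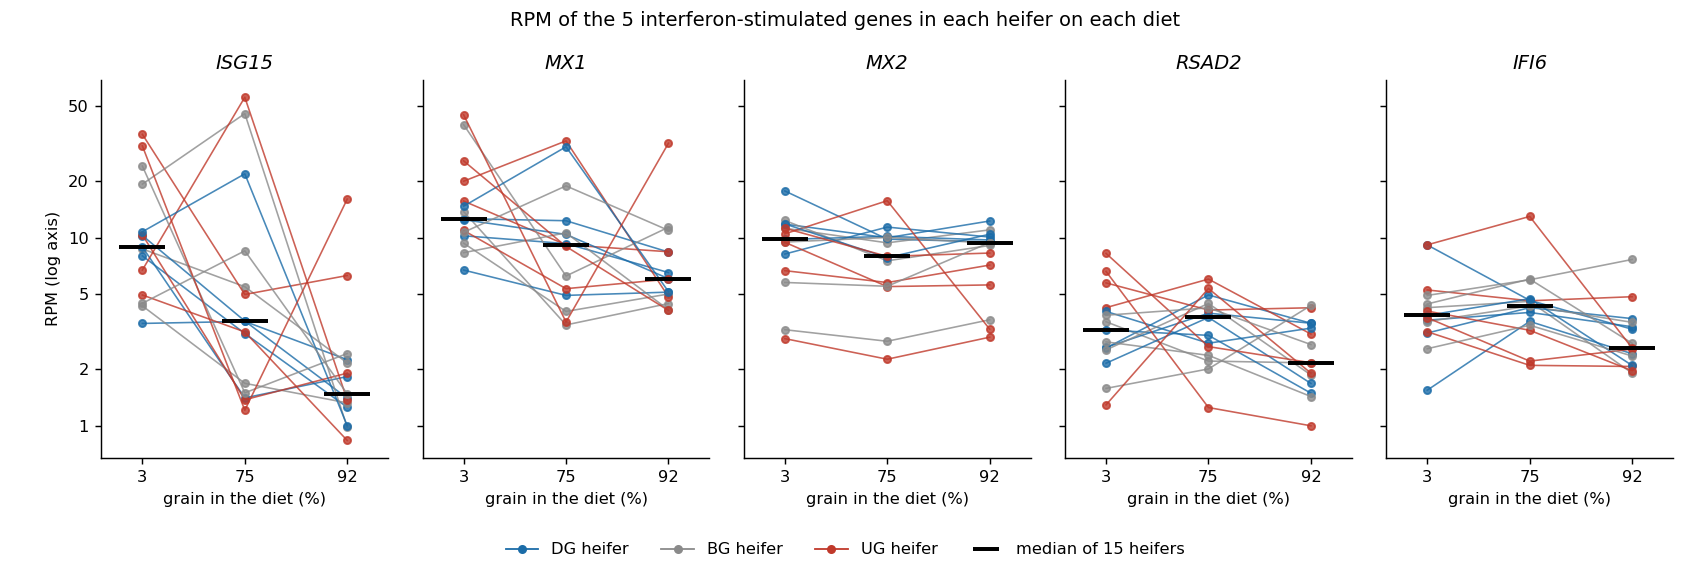
RPM on a log axis of each gene in each of the 15 heifers (points joined by a line for each heifer, coloured by pH group) on 3%, 75% and 92% grain, with black bars for the medians. The median of *ISG15* goes from 8.92 to 3.59 and 1.48 RPM while 3 heifers rise to between 21.8 and 55.6 RPM on 75% grain. In most heifers the lines of *MX2* vary less than those of *ISG15*, with heifers 246 and 262 at the bottom on 3% and 75% grain.

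*MX2*, the paralog of *MX1*, differed little between diets and strongly between heifers. Its values ran from 2.91 to 17.7 RPM on 3% grain (median 9.78), from 2.26 to 15.7 RPM on 75% grain (median 7.96) and from 2.96 to 12.3 RPM on 92% grain (median 9.36). Heifer 262 had 2.91, 2.26 and 2.96 RPM on the 3 diets, and heifer 246 had 3.25, 2.82 and 3.67 RPM. The other 13 heifers lay at 5.78 RPM or more on 3% grain and at 5.50 RPM or more on 75% grain, apart from both of them. On 92% grain heifer 286 joined them with 3.27 RPM, after 10.5 RPM on 3% grain and the highest value of 75% grain, 15.7 RPM. The log2 fold changes were -0.21 (standard error 0.21) from 3% to 75% grain, -0.18 (standard error 0.20) from 3% to 92% grain and 0.02 (standard error 0.20) from 75% to 92% grain when heifers were not blocked. *MX2* was lower in 11, 9 and 5 of 15 heifers in these comparisons, respectively. With the heifer as a block the standard errors were 0.09, 0.12 and 0.14, so that the value from 3% to 75% grain exceeded its standard error the most, and *MX2* stayed short of the fold change minimum. *MX1* and *MX2* lie next to each other in the RefSeq gene table of a later assembly (ARS-UCD2.0). How reads matching both genes were counted is not given in the sources used here, so the separate levels of the 2 genes carry that uncertainty.

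*RSAD2* ranged from 1.30 to 8.25 RPM on 3% grain (median 3.23), from 1.25 to 6.03 RPM on 75% grain (median 3.77) and from 1.00 to 4.37 RPM on 92% grain (median 2.17). All diets overlapped, and 1 sample on 92% grain, that of heifer 286 with 31 reads, lay below every sample on 3% grain. The log2 fold change was -0.35 (standard error 0.17) from 3% to 92% grain, with 11 of 15 heifers lower, and -0.35 (standard error 0.15) from 75% to 92% grain, with 12 of 15 lower. Between 3% and 75% grain it was -0.003 (standard error 0.18), with 7 heifers lower and 8 higher. Heifer 360 had the highest value on 3% grain (8.25 RPM), as for *MX1*, and then 2.64 and 2.17 RPM on 75% and 92% grain, so that its high *ISG15* and *MX1* on 92% grain were not matched by *RSAD2*.

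*IFI6* ranged from 1.55 to 9.16 RPM on 3% grain (median 3.87), from 2.10 to 13.0 RPM on 75% grain (median 4.34) and from 1.91 to 7.66 RPM on 92% grain (median 2.60). The diets overlapped, and no sample on 75% or 92% grain lay below the lowest one on 3% grain. Heifer 262 was highest on 3% grain (9.16 RPM) and on 75% grain (13.0 RPM), where the other 14 heifers had at most 6.03 RPM, and it had 2.60 RPM on 92% grain. From 3% to 92% grain the log2 fold change was -0.37 (standard error 0.16), with 12 of 15 heifers lower. From 75% to 92% grain it was -0.43 (standard error 0.16), also with 12 lower. From 3% to 75% grain it was 0.06 (standard error 0.18), with 5 heifers lower, and its sign turned with TMM scaling (-0.01).

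These values were set beside those of all genes. From 3% to 92% grain, the share of all genes lower in at least as many heifers was 0.174% for *ISG15* and 0.677% for *MX1*. It was 4.70% for *IFI6*, 9.33% for *RSAD2* and 24.7% for *MX2*. From 75% to 92% grain it was 7.03% for *RSAD2* and *IFI6*, 27.9% for *ISG15*, 43.4% for *MX1* and 90.6% for *MX2*. Such shares were not taken for the numbers of samples below every sample on 3% grain. From 3% to 92% grain 2 of the 5 genes, *ISG15* and *MX1*, were lower past the threshold (limma, fold change over 1.5, Benjamini-Hochberg adjusted p under 0.05). Of all 11516 genes tested, 0.287% did so, and nothing is read from this count because the genes were chosen with this contrast in view. From 3% to 75% grain 0 of the 5 genes passed in limma, against 0.130% of all genes. Without heifer 262 *ISG15* passed there as well (log2 fold change -1.11). From 75% to 92% grain 0 of the 5 genes passed in limma, against 0% of all genes lower. For that comparison 1330 genes had an unadjusted limma p under 0.05, edgeR called 0 genes and DESeq2 called 14. With DESeq2 on recovered reads *RSAD2* passed as well from 3% to 92% grain (log2 fold change -0.60, standard error 0.23). The median log2 fold change of all genes was 0.084 from 3% to 75% grain, 0.057 from 3% to 92% grain and -0.028 from 75% to 92% grain, and under TMM scaling these medians were within 0.01 of 0.

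**Figure D2:**
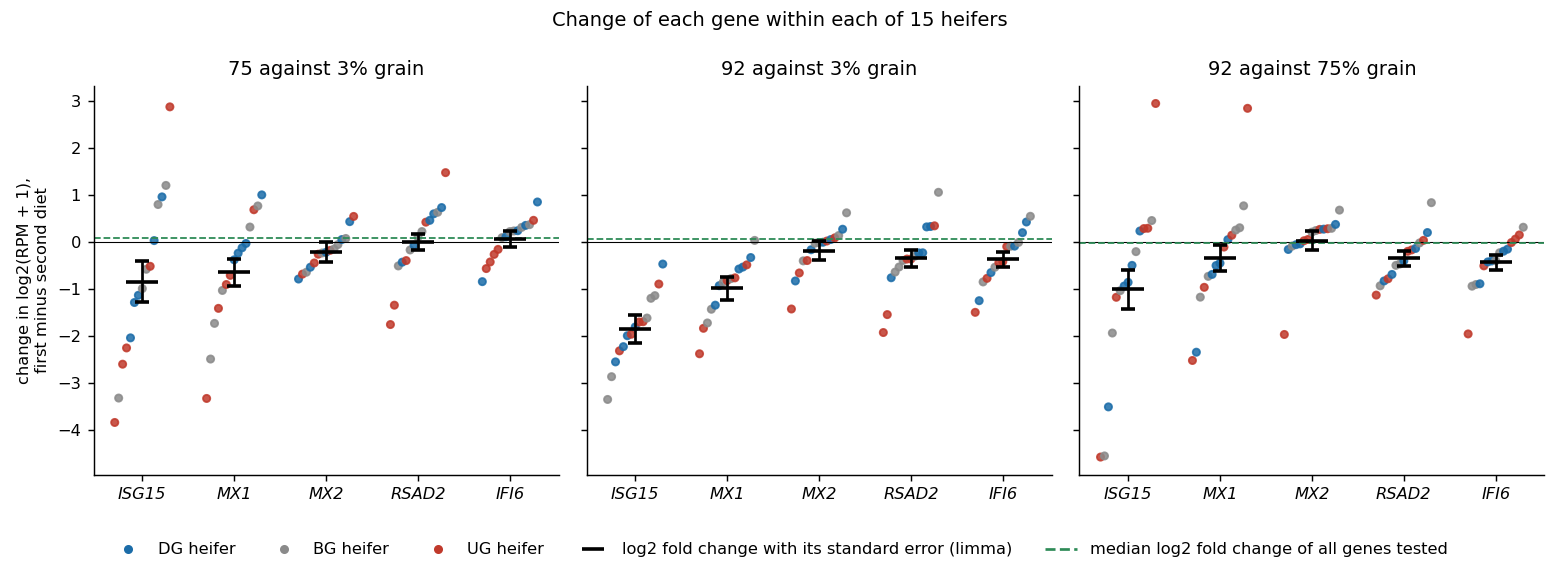
Change in log2(RPM + 1) within each of the 15 heifers (points, coloured by pH group and ordered by size) for each gene and pair of diets. Black marks give the limma log2 fold change with its standard error from the fit without a heifer term. That standard error ignores the pairing and does not measure the spread of the points. The dashed line is the median of all genes tested. All 15 points of *ISG15* lie below 0 for 92 against 3% grain, whereas for 75 against 3% grain they run from -3.84 to 2.87.

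The raw shares of the spread for diet and for heifer differed between the genes. Of the variance of log2(RPM + 1) over the 45 samples, diet held 32.0% for *ISG15*, 22.2% for *MX1*, 14.4% for *IFI6*, 11.0% for *RSAD2* and 2.47% for *MX2*, and the median of all genes was 8.86%. The heifer held 75.3% for *MX2*, 50.8% for *IFI6*, 29.2% for *MX1*, 26.8% for *RSAD2* and 22.3% for *ISG15*, with a median of 39.5% over all genes. The remainder was 22.2%, 34.8%, 48.6%, 62.2% and 45.7% in the same order, with a median of 46.6%. The shares are not corrected for the number of heifers and diets, so a gene without any effect also has shares above 0. The heifer shares of *MX1*, *RSAD2* and *ISG15*, below the median of all genes, are not read as an effect of the heifer. *MX2* and *ISG15* thus lay at opposite ends, and 98.1% of all genes had a smaller heifer share than *MX2* while 7.25% had a smaller one than *ISG15*. Heifers 246 and 262 had low *MX2* on each diet, with 3.25, 2.82 and 3.67 RPM and with 2.91, 2.26 and 2.96 RPM. Without them Pearson's r of *MX2* between 3% and 75% grain went from 0.81 to 0.41. The median r of all genes without the 2 farthest heifers was 0.18. The heifer share of *MX2* without heifers 246 and 262 was not tested. All 5 genes varied widely among heifers on the same diet. The standard deviation of log2(RPM + 1) over the 15 heifers on 75% grain was 1.53 for *ISG15*, 0.92 for *MX1*, 0.63 for *MX2*, 0.51 for *IFI6* and 0.46 for *RSAD2*, against a median of 0.20 over all genes.

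Whether a heifer that was high on 1 diet was high on another was tested over the 15 heifers by a two-sided permutation test of Pearson's r for each gene and pair of diets, 15 relations in all, with Benjamini-Hochberg adjustment over all 11516 genes. None of the 15 relations passed an adjusted p of 0.05. The share of all genes that passed was 1.45% between 3% and 75% grain, 0.269% between 3% and 92% grain and 4.41% between 75% and 92% grain. An unadjusted p under 0.05 occurred in 6 relations. Nothing is read from this count, because the share of all genes under that cutoff was not taken. The median r of all genes was 0.25, 0.13 and 0.27 on these pairs of diets, so r above 0 was common. *MX2* came closest between 3% and 75% grain, with r = 0.81 (permutation p = 0.00082, adjusted p = 0.0525) and Spearman's rho = 0.44 (permutation p = 0.0994). Only 0.999% of all genes had a higher r. The relation rested on heifers 246 and 262, since r was 0.41 (permutation p = 0.156) without them. Between 3% and 92% grain *MX2* had r = 0.65 (permutation p = 0.0104, adjusted p = 0.265) and rho = 0.54 (permutation p = 0.0406), and without the heifers farthest from the median r was 0.14. Between 75% and 92% grain r was 0.51 (permutation p = 0.0463, adjusted p = 0.245) and rho was 0.46 (permutation p = 0.0853), and r was -0.16 without the 2 farthest heifers.

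For *ISG15* r was -0.04 between 3% and 75% grain (permutation p = 0.889) and rho was -0.14 (permutation p = 0.631). Between 75% and 92% grain r was -0.38 (permutation p = 0.15, adjusted p = 0.429) and rho was -0.42 (permutation p = 0.121). Between 3% and 92% grain r was 0.64 (permutation p = 0.00711, adjusted p = 0.235) and rho was 0.36 (permutation p = 0.181). This value rested on heifers 178 and 360, the highest on both diets, and r was 0.10 without them. *MX1* had r = -0.07 between 3% and 75% grain, 0.40 there without its 2 farthest heifers (permutation p = 0.177). It had r = 0.60 between 3% and 92% grain (permutation p = 0.0199, adjusted p = 0.344) and -0.23 between 75% and 92% grain. Without its 2 farthest heifers the value between 3% and 92% grain was -0.13. *IFI6* had r = 0.63 between 3% and 75% grain (permutation p = 0.0163, adjusted p = 0.175) and rho = 0.71 (permutation p = 0.00391, adjusted p = 0.134), and without its 2 farthest heifers r was 0.42 and rho 0.62. *RSAD2* had r between -0.31 and 0.35 on the 3 pairs of diets.

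**Figure D3:**
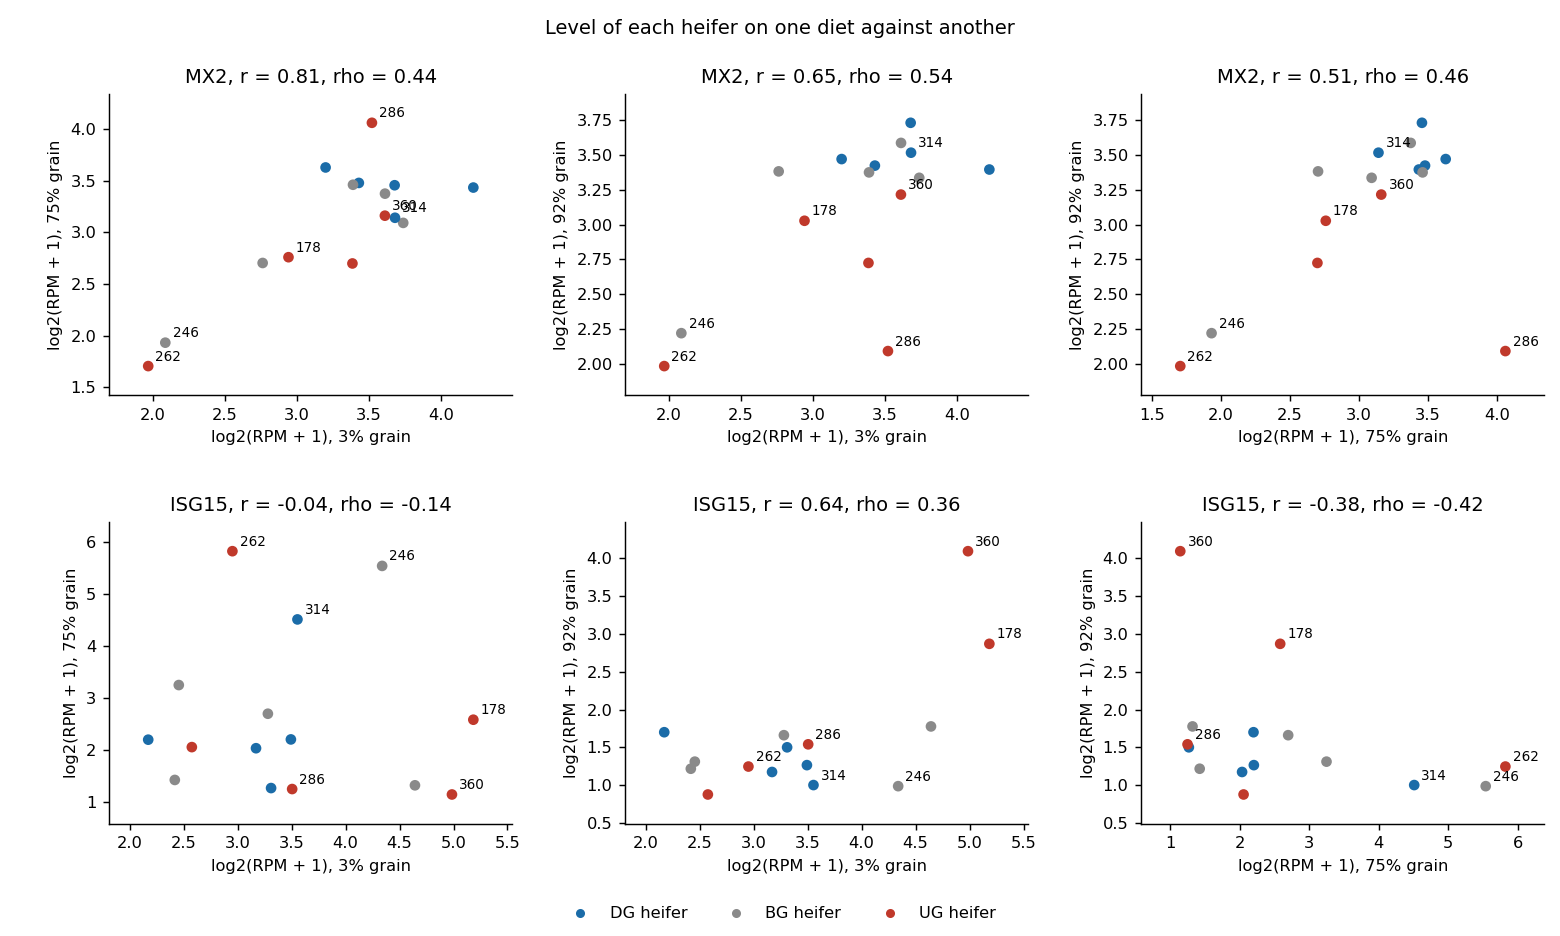
log2(RPM + 1) of each heifer on one diet against another for *MX2* (top row) and *ISG15* (bottom row), with points coloured by pH group and some heifers numbered. Heifers 246 and 262 lie apart at the low end of *MX2* and carry r = 0.81 between 3% and 75% grain, and heifers 178 and 360 lie apart at the high end of *ISG15* on 3% and 92% grain.

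Within a diet, the genes were compared with each other over the 15 heifers in 10 pairs and on 3 diets, 30 relations in all, with adjustment over all other genes. None of the 30 relations passed an adjusted p of 0.05, and 9 had an unadjusted p under 0.05. Across the 5 genes and 3 diets, 0% of the relations with any other gene passed. The permutation p could not fall below 1e-05, so a single partner among 11515 could not pass after adjustment, however high its r. Nothing is therefore read from the 0%. On 3% grain r ran from -0.48 to 0.42 and no pair had an unadjusted p under 0.05. On 75% grain 8 of the 10 pairs did, and on 92% grain 1 pair did. Without the 2 heifers farthest from the median of the first gene of a pair, these numbers were 3 on 75% grain and 0 on 92% grain. Nothing is read from these counts, because the share of all pairs of genes under that cutoff was not taken. On 75% grain *IFI6* had r = 0.53 with *MX1* (permutation p = 0.0394) and was only number 449 of 11515 genes by r with *MX1*. *ISG15* and *MX1* had r = 0.42 on 3% grain, 0.76 on 75% grain (permutation p = 0.00141, adjusted p = 0.319; rho = 0.70, permutation p = 0.0044) and 0.84 on 92% grain (permutation p = 0.00284, adjusted p = 1.0; rho = 0.71, permutation p = 0.00444). Ranked by r with *ISG15* among 11515 genes, *MX1* was number 471 on 3% grain, number 27 on 75% grain and number 3 on 92% grain. Without the heifers farthest from the median of *ISG15* these values of r were 0.21, 0.81 and 0.55, and on 75% grain r was 0.52 (permutation p = 0.0583) without those farthest from the median of *MX1*.

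On 75% grain *MX2* had r below 0 with each of the other 4 genes. Its r was -0.79 with *ISG15* (permutation p = 0.00105, adjusted p = 0.283; rho = -0.60, permutation p = 0.0195), -0.68 with *IFI6*, -0.59 with *RSAD2* and -0.55 with *MX1*, and none of these passed after adjustment. Heifers 262 and 246, the highest in *ISG15* on that diet, were the lowest in *MX2* on that diet and on 3% grain. Without them the r of *ISG15* and *MX2* was -0.39 (permutation p = 0.186). On 3% and 92% grain it was -0.12 and 0.12. On 75% grain, without heifers 246 and 262, *MX2* had r = -0.23 with *IFI6* (permutation p = 0.454). With *MX1* it had r = -0.36 (permutation p = 0.229). Over all heifers rho was -0.41 with *IFI6* (permutation p = 0.131) and -0.43 with *MX1* (permutation p = 0.112). The r of *MX2* with *IFI6* and *MX1* thus rested in part on heifers 246 and 262. *ISG15* and *IFI6* had r = 0.70 on 75% grain (permutation p = 0.00279, adjusted p = 0.369; rho = 0.60, permutation p = 0.0203), which went to 0.32 without the same heifers. For *MX2* and *RSAD2* on 75% grain r was -0.70 (permutation p = 0.0084, adjusted p = 0.385) without the heifers farthest in *MX2* and -0.50 (permutation p = 0.0834) without those farthest in *RSAD2*. *RSAD2* had its highest r with *MX1* on 75% grain (0.52) and with *IFI6* on 92% grain (0.49).

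**Figure D4:**
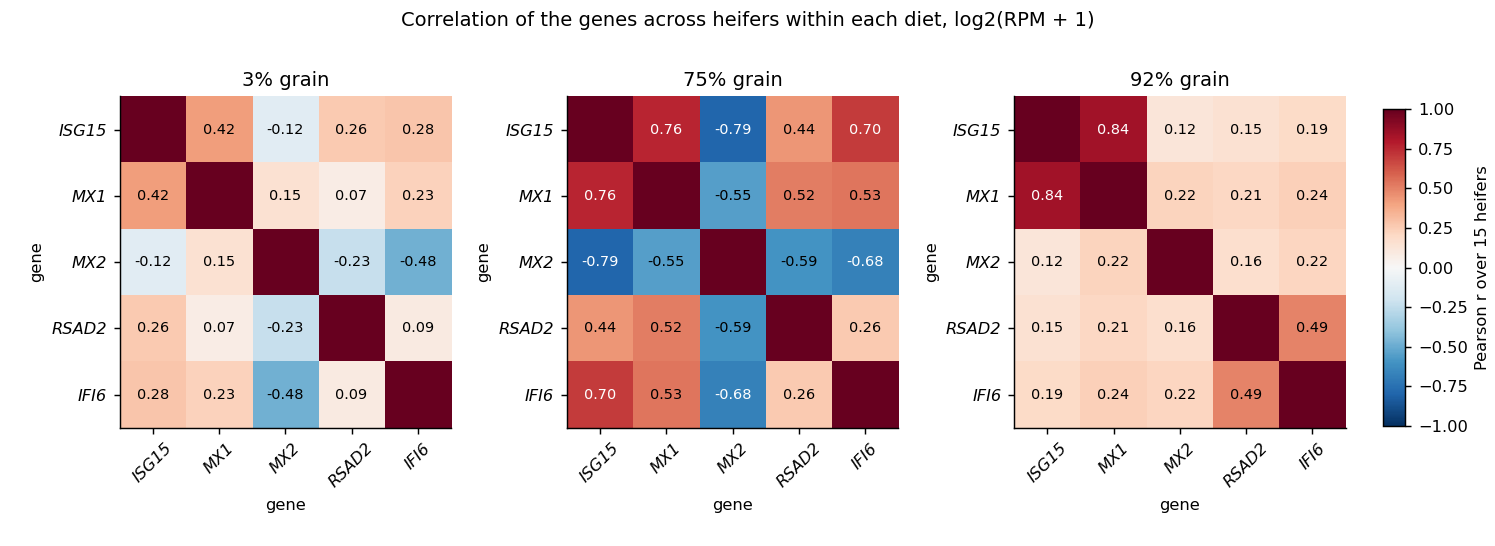
Pearson's r over the 15 heifers between each pair of genes on 3%, 75% and 92% grain, in log2(RPM + 1), with red for values above 0 and blue for values below 0. *ISG15* and *MX1* go from 0.42 to 0.76 and 0.84, and *MX2* is below 0 with the other 4 genes on 75% grain, where r with *ISG15* is -0.79.

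The genes most like the 5 were ranked by r over all 45 samples with the mean of their standardised log2(RPM + 1). This is a description, since the 45 samples share diets and heifers and the members form the measure. The 10 closest genes had r from 0.60 to 0.84, and 9 of them had their highest r with *ISG15* and 1 with *MX1*. With *MX2* the r of the 10 genes ran from -0.27 to 0.09. The closest was ENSBTAG00000039861 (r = 0.84, and 0.97 with *ISG15* alone), with 18.2 ± 12.5, 15.3 ± 19.5 and 4.91 ± 4.36 RPM (SD, n = 15) on 3%, 75% and 92% grain. ENSBTAG00000005816 came next (r = 0.78), with 21.5 ± 3.81, 18.5 ± 5.25 and 15.2 ± 4.25 RPM, a smaller difference between diets. Both were lower on 92% than on 3% grain in 15 of 15 heifers, and 9 of the 10 genes were so in at least 12, against 4.70% of all genes. Nothing is read from this count, because the measure that chose the 10 genes itself differs between diets. Over the 45 samples *ISG15* had r = 0.75 with *MX1*, 0.52 with *IFI6*, 0.40 with *RSAD2* and -0.23 with *MX2*.

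By pH group, values are described without a test, because the groups are not in the labels and hold 5 heifers each. On 3% grain the mean of *ISG15* was 8.29 ± 2.88 RPM in DG, 12.2 ± 8.97 RPM in BG and 17.6 ± 14.3 RPM in UG (SD, n = 5), and the medians, 8.92, 8.71 and 10.4 RPM, lay closer together. The mean of *MX1* was 11.3 ± 3.02, 16.4 ± 13.2 and 23.4 ± 13.2 RPM. Its medians were 12.5, 10.7 and 19.9 RPM, with BG below DG, and without heifer 294 the BG mean was 10.5 RPM. The groups overlapped for both genes. On 92% grain *ISG15* had 1.55 ± 0.493 RPM in DG, 1.68 ± 0.600 RPM in BG and 5.29 ± 6.38 RPM in UG, and without heifer 360 the UG mean was 2.60 RPM. *ISG15* was lower on 92% than on 3% grain in 5 of 5 heifers in each pH group. *MX2* had its highest mean in DG on each diet, with 11.9 ± 3.60, 9.83 ± 1.28 and 10.4 ± 1.10 RPM on 3%, 75% and 92% grain. In UG it had 8.15 ± 3.39, 7.44 ± 5.05 and 5.46 ± 2.34 RPM, and in BG 8.41 ± 3.81, 7.06 ± 2.95 and 8.51 ± 2.81 RPM. On 92% grain the 5 DG heifers lay between 9.51 and 12.3 RPM of *MX2* and the 5 UG heifers between 2.96 and 8.28 RPM. These 2 groups did not overlap, which was so, with DG higher, for 0.434% of all genes, while BG overlapped with both. Many genes, diets and pairs of groups were looked at, so nothing is read from this separation. *RSAD2* was highest in UG on 3% grain (5.23 ± 2.63 RPM, against 2.93 ± 0.737 in DG and 2.87 ± 0.905 in BG), and on 92% grain the 3 means lay between 2.48 and 2.70 RPM. The step from 75% to 92% grain is the one on which the pH groups were defined. Mean changes in log2(RPM + 1) are given for it in the order DG, BG and UG (SD, n = 5). They were -0.41 ± 0.29, -0.43 ± 0.52 and -0.45 ± 0.88 for *IFI6*, where UG included the fall of heifer 262 (-1.96). For *ISG15* they were -1.11 ± 1.42, -1.46 ± 1.95 and -0.45 ± 2.75, and for *MX1* -0.79 ± 0.91, -0.12 ± 0.80 and -0.12 ± 1.96. DG included the falls of heifer 314 (-3.51 for *ISG15* and -2.35 for *MX1*). BG included the fall of *ISG15* in heifer 246 (-4.55). UG joined falls in heifer 262 (*ISG15* -4.58, *MX1* -2.52) with rises in heifer 360 (*ISG15* 2.94, *MX1* 2.84). How far the group means rest on these heifers was not tested. For *RSAD2* the mean changes were -0.37 ± 0.42, -0.22 ± 0.67 and -0.45 ± 0.49, and for *MX2* 0.08 ± 0.23, 0.27 ± 0.27 and -0.27 ± 0.96. The number of heifers that were lower, in the order DG, BG and UG with 5 heifers each, was 5, 4 and 3 for *IFI6*, 4, 4 and 2 for *ISG15*, 4, 2 and 3 for *MX1*, 3, 1 and 1 for *MX2*, and 4, 4 and 4 for *RSAD2*.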

How the data were processed

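RNA of 45 ruminal papillae samples was sequenced. Alignment by the authors used TopHat2 2.0.10 and bovine UMD 3.1, and htseq-count gave reads per Ensembl gene. The authors deposited these as RPM, scaled so that the genes of a sample sum to 1000000, in 1 file per sample. Each sequencing lane held samples of every diet. Whether the 2 reads of a pair were counted apart, and whether strand was used, is not given in the sources used here. All RPM were whole multiples of the value of 1 read (to within 0.0015 of a read), so whole reads were recovered for 100% of the values. No 2 samples agreed within sampling noise (990 pairs, smallest chi-square per degree of freedom 18.4).

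The 5 genes, the gene lists and the tests were chosen with earlier results of these data known. For each pair of diets, log2(RPM + 1) was fitted with limma 3.58.1 (R 4.3.3), without a heifer term, over the 11516 genes whose RPM exceeded 1 in all 15 heifers for at least 1 of the diets. Calls needed a fold change over 1.5 with an adjusted p (Benjamini-Hochberg) under 0.05. Fold changes on this scale understate those of low genes. Replicates were different heifers, and the same heifers on each diet: deviations from the diet means correlated more within a heifer (median 0.356, 45 pairs of samples) than between heifers (-0.022, 630 pairs), so the heifer number pairs the samples, and fits with it as a replicate block are an alternative. Correlations over heifers used 100000 permutations, in Python 3.11.15 with numpy 2.4.6. The planned adjustment over 15 and 30 relations was replaced by one over all genes, because the genes were selected on these data. Of the 10 genes most like the 5 over the 45 samples, named by rule, 2 IDs are printed. Alternatives were TMM scaling, pseudocounts of 0.1 and 0.5, other filters, all 45 samples in 1 fit, edgeR 4.0.16 and DESeq2 1.42.0 on recovered reads, and each heifer left out. On simulated data the limma fit and the correlations were tested before use. Intervals of single values cover counting error only. The planned counts over 139 interferon pathway genes and 71 cell type markers were not made, since 0 of the 24616 IDs could be matched to symbols with the reference table at hand, and no sequences were printed.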

Additional observations from a re-analysis of the deposited data

Results flagged for a closer look

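In groups of 5 heifers (a pH group on 1 diet), a sample was listed when its distance from the nearest of the others exceeded 0.71 of the range of the group. Of the 45 groups looked at, 11 held such a sample on the RPM scale (24.4%), against 5.66% of the groups over all genes tested, and for normally distributed values chance lists about 1 in 20 groups. On the log2(RPM + 1) scale, tried after seeing the data, 4 of the 45 groups did (8.89%), against 5.55% over all genes, so most of the samples below stand apart on the RPM scale only. For *ISG15* these were 3 samples on 75% grain, 1 in each pH group, with 21.8 RPM in heifer 314 of DG (next 3.61 RPM), 45.5 RPM in heifer 246 of BG (next 8.51 RPM) and 55.6 RPM in heifer 262 of UG (next 4.99 RPM). For *MX1* they were heifer 294 of BG on 3% grain (39.8 RPM, next 13.8 RPM), heifer 314 of DG on 75% grain (30.4 RPM, next 12.3 RPM), heifer 262 of UG on 75% grain (32.6 RPM, next 9.16 RPM) and heifer 360 of UG on 92% grain (31.7 RPM, next 8.42 RPM). *MX2* in heifer 246 of BG on 92% grain had 3.67 RPM, and the next value was 9.09 RPM. *IFI6* was high in heifer 262 of UG on 75% grain (13.0 RPM, next 4.62 RPM), in heifer 294 of BG on 92% grain (7.66 RPM, next 3.55 RPM) and in heifer 178 of UG on 92% grain (4.86 RPM, next 2.60 RPM). Heifer 262 on 75% grain was thus listed for *ISG15*, *MX1* and *IFI6*, and its library had the lowest median correlation with the others of that diet (0.973). The part of the library in these values was not tested.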

How the results depend on the processing

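The direction of *ISG15* and *MX1* from 3% to 92% grain was the same in every fit made, and 2 of the 5 genes passed in each of them except DESeq2, where 3 did. With each heifer left out in turn the log2 fold change of *ISG15* ranged from -1.95 to -1.75 and that of *MX1* from -1.06 to -0.89. From 3% to 75% grain *ISG15* ranged from -1.11 (without heifer 262, where it passed) to -0.63 (without heifer 360). In the fit with a replicate block for the heifer, the standard error from 3% to 92% grain was 0.17 for *ISG15*, and no call of the 5 genes changed. Leaving out the libraries of heifers 172 on 3% grain and 286 on 92% grain, chosen after seeing the data, gave -1.87 and -1.85 for *ISG15* and moved *MX2* from -0.18 to -0.16 and -0.11. For *RSAD2* and *IFI6* from 3% to 75% grain the sign changed between settings, with values near 0. For *ISG15* from 75% to 92% grain edgeR gave -1.88 against -1.01 in limma. The counts of relations between diets and between genes that passed after adjustment stayed 0 on the RPM scale, with TMM scaling and without the 2 farthest heifers. Nothing is read from the 0 between genes, where a single partner could not pass at any r. Nor is anything read from the 0 for 3% against 75% or 92% grain without the 2 farthest heifers, where 0% of all genes passed. Without these heifers the r of *MX2* between 75% and 92% grain turned to -0.16 and that of *ISG15* between 3% and 75% grain to 0.14, and that of *MX1* between 3% and 75% grain went from -0.07 to 0.40.

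Counts over all genes moved more. From 3% to 75% grain 177 genes passed in limma, 307 with a pseudocount of 0.1 and 2343 without a fold change minimum. From 3% to 92% grain these counts were 238, 358 and 2076. The lower genes among them were 33 of 238 in limma, 46 of 191 with TMM scaling and 96 of 310 with edgeR from 3% to 92% grain, and 15 of 177 in limma and 47 of 198 with edgeR from 3% to 75% grain. From 75% to 92% grain the count was 0 in limma, 14 with the replicate block, 2 with TMM scaling, 14 with DESeq2 and 0 to 8 with a heifer left out. The planned counts over interferon pathway genes were not run. Depth limits the lowest values most, such as *ISG15* at 29 reads.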
